A study of Mus musculus with 12 samples.

Results

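Receptor tyrosine phosphatases were examined as a set of 10 genes, Ptpro, Ptprb, Ptprd, Ptpre, Ptprf, Ptprg, Ptprj, Ptprk, Ptprm and Ptprs, taken by gene symbol from a count table of 24060 genes. The set was chosen by the level of its leading gene Ptpro in the immunoprecipitated libraries, which differed between the 2 diets, so that difference is given here as a description with no test. The libraries came from brain white matter of 6 male Tie2-Cre:Rpl22-HA mice, in which Cre recombinase driven by the promoter of Tie2 (Tek), a receptor of endothelial cells, switches on a hemagglutinin tag on the ribosomal protein Rpl22. Tie2-Cre also recombines in some blood-lineage cells, and the ages of these mice were not given in the sources used here. All groups carried both alleles. Animals 489, 555 and 556 were fed the control fat diet (CFD), with fat giving 10% of the energy, and animals 516, 517 and 676 the obesity-inducing high fat diet (HFD), with fat giving 60%. Each mouse gave 1 input library, from total white matter RNA, and 1 immunoprecipitated (IP) library, from RNA bound to tagged ribosomes. The design therefore holds 4 groups of 3 libraries, and it asks which messages the tagged ribosomes held above the tissue and how diet changed them.

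Tyrosine phosphatases remove phosphate from tyrosine residues and so oppose tyrosine kinases. The receptor-type enzymes have an extracellular part, 1 membrane-spanning segment and an intracellular catalytic part, and they are sorted into subtypes by the extracellular part. Subtype R3 (Ptpro, Ptprb and Ptprj) carries repeated fibronectin type III domains. Subtype R2A (Ptprd, Ptprf and Ptprs), the leukocyte common antigen-related enzymes, binds proteoglycans and synaptic adhesion proteins. Subtype R2B (Ptprk and Ptprm) binds itself between neighbouring cells. Ptpre (R4) has a short extracellular part, and Ptprg (R5) carries a carbonic anhydrase-like domain that binds contactins. In vessels, Ptprb, the vascular endothelial protein tyrosine phosphatase, restrains the Tie2 receptor and VE-cadherin, and Ptprj acts on growth factor receptors.

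The 12 libraries held 19567186 to 33660708 counts. The ribosomal transcript Rn45s took 38.7% to 42.3% of the counts in CFD IP, 17.1% to 19.1% in HFD IP and 6.34% to 14.2% in the inputs. Levels are given as CPM, the counts per mega-count of a library size scaled by the trimmed mean of M values, whose factors were 0.606 to 0.698 in CFD IP, 0.858 to 1.13 in HFD IP and 1.12 to 1.33 in the inputs. Endothelial markers were scarce. The summed level of 15 endothelial markers was 62.4 to 285 CPM in CFD IP and 37.1 to 113 CPM in HFD IP, against 38.8 to 78.3 CPM in the inputs, and in each IP library 2 to 6 of the 15 were at 0 counts. Slc2a1 was a large part of most of these sums. It had 55.9 to 71.5 CPM in CFD IP, 25.1 to 43.9 CPM in HFD IP and 3.56 to 54.9 CPM in the inputs. Of the 13 endothelial markers with enough counts to be tested, 0 were called in IP against input averaged over the diets by edgeR at an adjusted p under 0.1. Neuronal markers summed to 5400 to 12700 CPM over the 12 libraries. The IP and input libraries of animal 676 shared more of their deviations from the group means than those of the other animals did. These deviations correlated with r = 0.19 across genes, against 0.00641 to 0.055 in the others. Genes are not independent replicates. In such bulk libraries, fewer cells of a type and less RNA per cell cannot be told apart.

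The genes are spread over the mouse genome (mm10, the assembly that RefSeq names GRCm38.p6). Ptpro lies on chromosome 6 at 137252299 to 137464634 on the plus strand with 27 exons, and Ptprb on chromosome 10 at 116275502 to 116389538. Ptprj lies on chromosome 2 at 90429756 to 90580694, Ptprf on chromosome 4 at 118208213 to 118291405, and Ptprs on chromosome 17 at 56412426 to 56476561, these 3 on the minus strand. Exons of Ptprj, Ptprs, Ptprd and Ptpre overlap exons of a gene on the opposite strand, and whether the counting used strand was not stated, so reads of the partners cannot be told apart there. RefSeq promoter windows of 250 bases before a transcription start were at hand for 8 of the 10 genes, 13 windows in all. The windows of Ptpro, the gene on which the set rests, and of Ptprf, which had the largest fitted averaged difference between IP and input among the 10, are printed 5′ to 3′ as the contrasting cases, with the GC box (GGGCGG, or CCGCCC for the other strand) in capitals.
Ptpro, GRCm38.p6, chr6:137252049-137252298, plus strand: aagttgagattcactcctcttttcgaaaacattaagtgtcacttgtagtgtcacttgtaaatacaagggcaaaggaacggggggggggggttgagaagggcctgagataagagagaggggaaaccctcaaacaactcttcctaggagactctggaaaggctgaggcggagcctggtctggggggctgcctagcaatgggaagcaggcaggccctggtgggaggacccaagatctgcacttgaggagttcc
Ptprf, GRCm38.p6, chr4:118291398-118291647, minus strand: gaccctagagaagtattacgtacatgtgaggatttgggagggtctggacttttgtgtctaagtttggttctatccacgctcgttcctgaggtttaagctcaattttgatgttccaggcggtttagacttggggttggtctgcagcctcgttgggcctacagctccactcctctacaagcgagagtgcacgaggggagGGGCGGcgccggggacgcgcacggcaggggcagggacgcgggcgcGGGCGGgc
The Ptpro window held 0 GC boxes and 3 CG dinucleotides, and the Ptprf window held 2 GC boxes and 18 CG dinucleotides. A GC box was present in 6 of the 13 windows of the set and in 32.7% of all 32851 windows of this length, which had a median of 6 CG dinucleotides. These letters describe the windows and say nothing about factors bound there.

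Compared per kilobase of transcript, Ptprs was the most abundant of the 10 messages in every group and Ptprb the least. The mean level of Ptprs was 48.0 ± 16.9 CPM per kb in CFD input, 98.9 ± 23.7 in CFD IP, 41.8 ± 17.3 in HFD input and 79.3 ± 5.83 in HFD IP (SD, n = 3 each). Ptprb reached 0.138 ± 0.0937 CPM per kb in CFD input and 0.0200 ± 0.0105 in CFD IP. Ptprj came next after Ptprs and Ptprd the third in all 4 groups, at 25.2 ± 8.19 and 23.4 ± 3.42 CPM per kb in CFD input. The order of Ptprj and Ptprd depends on the length used. The length implied by the deposited values was 4201 bases for Ptprj, against 7582 for its spliced RefSeq transcript, and with the longer length Ptprj fell below Ptprd in both input groups and in HFD IP (14.0 against 23.8, 13.3 against 23.6 and 27.0 against 28.9 CPM per kb), but not in CFD IP. Neighbours in the order mostly overlapped. In CFD IP, the library ranges of Ptprs, Ptprj and Ptprd were separate from each other, while those of Ptprd, Ptpre, Ptprg, Ptprk, Ptprf and Ptprm each overlapped the next, and Ptpro (0.387 ± 0.0804 CPM per kb) and Ptprb lay apart from each other. In HFD IP, each neighbour from Ptprs down to Ptprk overlapped the next, and Ptpro stood the seventh at 10.7 ± 10.8 CPM per kb. Together the 10 genes took 612 to 1053 CPM in the inputs, 1034 to 1260 CPM in CFD IP and 1043 to 1660 CPM in HFD IP.

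**Figure D1:**
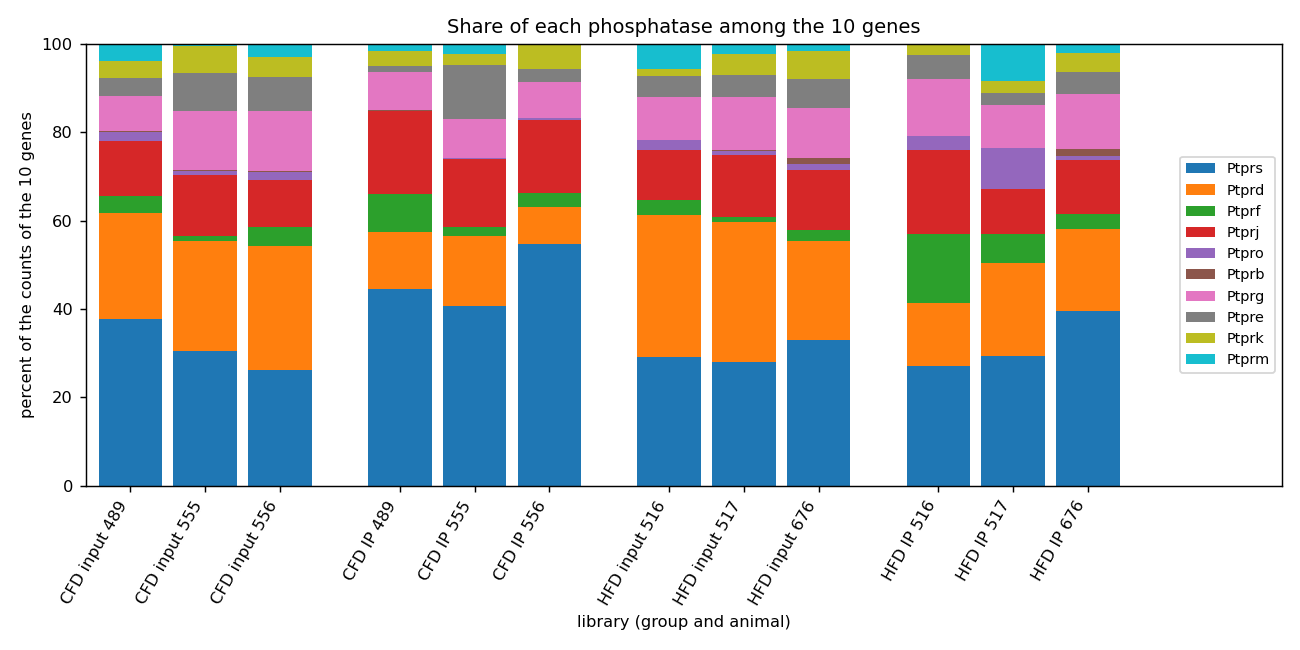
Share of each gene among the counts of the 10 genes (y axis, percent, not corrected for length) in each of the 12 libraries (x axis, group and animal). Ptprs takes 26.1% to 54.7%, Ptpro at most 0.240% in CFD IP and 1.07% to 9.12% in HFD IP, and Ptprb exceeds 1% in both libraries of animal 676 alone.

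Ptpro, known as glomerular epithelial protein 1 in kidney podocytes and also present in neurons and blood cells, had the widest gap between the IP groups. CFD IP libraries held 50, 41 and 54 Ptpro counts (animals 489, 555 and 556), and HFD IP libraries held 1466, 4496 and 365 (animals 516, 517 and 676). The inputs held 441, 255 and 286 counts in CFD and 532, 164 and 377 in HFD. Every HFD IP library lay above every CFD IP library, and every CFD IP library lay below every CFD input, whereas the 2 input groups overlapped. In CPM, Ptpro was 2.53 ± 0.526 in CFD IP and 70.2 ± 70.7 in HFD IP, a ratio of means of 27.7 (SD, n = 3 each). Animal 517 alone gave 70.6% of the HFD IP level, and the fitted log2 difference of 4.79 between the IP groups was 3.61 to 5.30 when each animal was left out in turn. Within animals, the log2 ratio of IP to input was -2.87, -2.18 and -1.78 in the CFD mice (489, 555 and 556) and 1.78, 4.64 and -0.269 in the HFD mice (516, 517 and 676). Ptpro was thus below its input in all 3 CFD mice and above it in 2 of 3 HFD mice. These IP values chose the set and carry no test.

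Though taken from the same mice and fitted together with the IP libraries, the input libraries did not enter that choice. Ptpro was not called between them by edgeR's quasi-likelihood test: 12.8 ± 5.37 CPM in CFD and 11.4 ± 4.76 CPM in HFD (SD, n = 3 each), a log2 fold change of -0.17 (SE 0.809, adjusted p = 1.0). The standard error leaves room for a change of either sign. Other quantities moved with the Ptpro levels of the IP groups. Rn45s had a larger share in every CFD IP library than in every HFD IP library, as given above. The summed level of 10 microglia and macrophage markers was 102 to 145 CPM in CFD IP and 157 to 316 CPM in HFD IP, with 6 to 9 and 8 to 9 of the 10 above 3 counts. Within HFD IP it was 235 CPM in animal 516, 316 CPM in animal 517 and 157 CPM in animal 676, the same order as Ptpro. Csf1r, a marker in that sum, held 1135, 5808 and 1419 counts in those libraries. The place of animal 517 above 516 rested on that gene, and the sum of the other markers was highest in 516. Of the defining markers, Mrc1 was at 0 in the CFD IP library of 555, C1qa and Ptprc in that of 556, Ptprc in the HFD IP library of 516, and Aif1 in that of 517. In HFD IP, the oligodendrocyte and oligodendrocyte progenitor marker sums also had the order of Ptpro. They were 6570, 6960 and 2790 CPM, and 252, 271 and 95.1 CPM, in animals 516, 517 and 676. Their ranges in IP overlapped between the diets. Astrocyte, neuron and endothelial sums were highest in 516 and lowest in 676, and pericyte and blood sums had other orders. Of the 10 microglia and macrophage markers, edgeR called 0 in HFD IP against CFD IP, with 7 fitted higher. The part of these quantities in the Ptpro values was not tested.

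**Figure D2:**
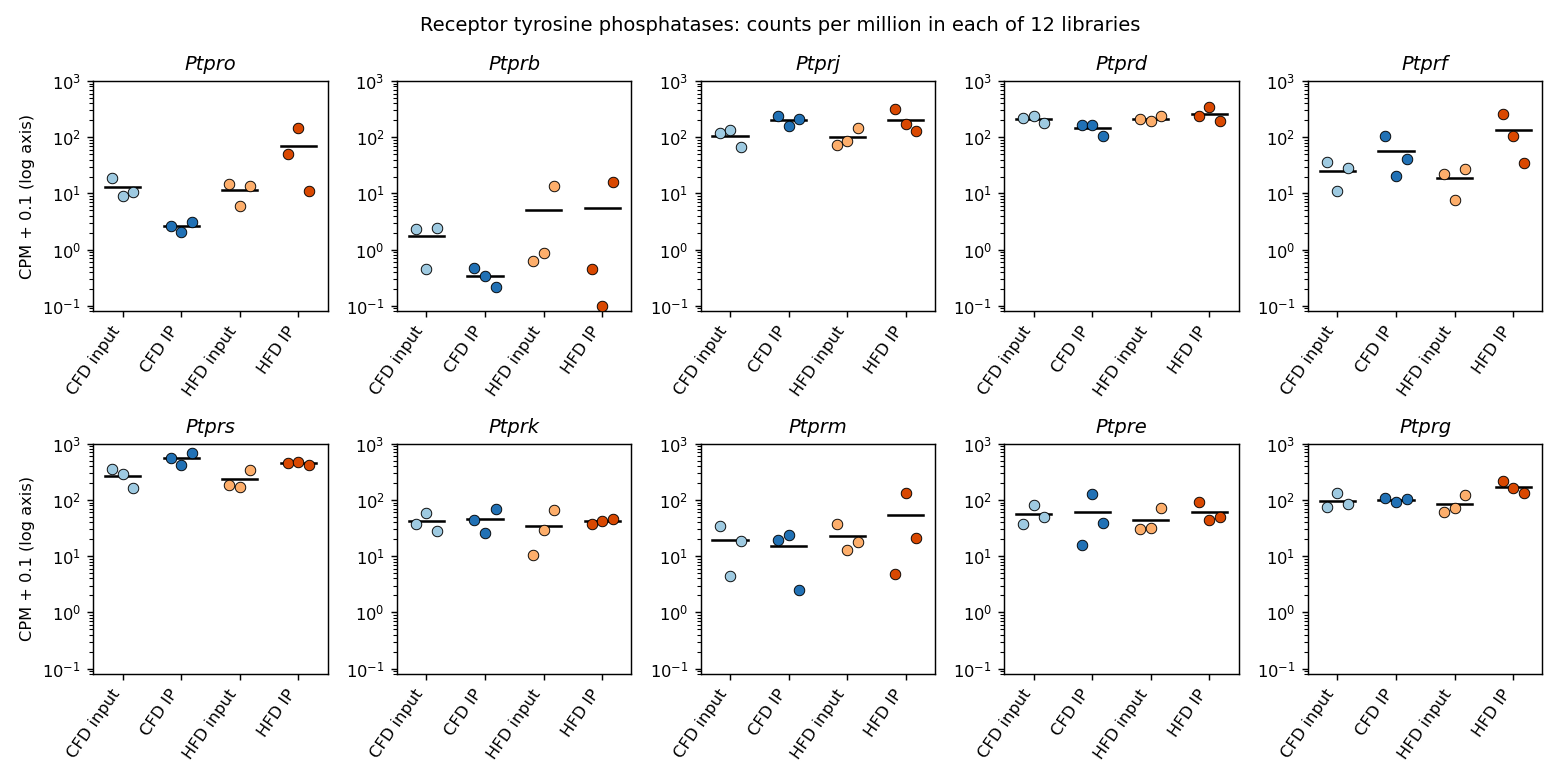
CPM + 0.1 on a log axis for each of the 10 genes (panels), by group (x axis); each point is 1 library, ordered by animal number within a group, and the line is the group mean. Ptpro separates CFD IP (1.98 to 3.03 CPM) from every other group, while Ptprs is above 165 CPM in all 12 libraries.

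Most of the Ptprb counts came from 1 animal. It had 53, 10 and 63 counts in the CFD inputs and 7, 5 and 2 in CFD IP (animals 489, 555 and 556). In HFD it had 19, 21 and 375 counts in the inputs and 10, 0 and 530 in IP (animals 516, 517 and 676). Animal 676 was high in both of its libraries, at 13.3 CPM in input and 16.2 CPM in IP, and gave 97.9% of the HFD IP level. In the other 5 animals Ptprb was lower in IP than in the input of the same mouse. The IP library of animal 517 held 0 counts, and a true mean of up to 3 counts would allow that. The fitted log2 difference between HFD IP and CFD IP was 4.50 with a standard error of 2.32, and without animal 676 it was -0.45. Named for vascular endothelium, Ptprb was not highest in the IP library with the highest summed endothelial markers. Their sum was 37.1 CPM in the IP library of 676, the lowest of the 6 IP libraries, and 285 CPM in the CFD IP library of 556, where Ptprb had 2 counts and Egfl7 alone had 3650. Slc2a1 alone gave 62.6 of 69.8 CPM in the CFD IP library of 489 and 55.9 of 62.4 CPM in that of 555. It gave 25.1 CPM in the IP library of 676, and the lowest rank of 676 rested on that gene. In that library of 676, Pecam1, Cldn5 and Tie1 were at 0 and 10 of 15 markers were above 3 counts, against 6 or 7 in the other IP libraries. Tek, which encodes the Tie2 receptor that Ptprb acts on, had 43 counts there, 80 in the CFD IP library of 556 and at most 1 in the other IP libraries. The input of 676, where Ptprb was highest among the inputs, also had the highest marker sum of the inputs (78.3 CPM). In that input, 14 of 15 markers were above 3 counts, the most of any library. Averaged over the diets, the log2 fold change of Ptprb in IP against input was -1.29 (SE 1.44), which was not called (edgeR adjusted p = 0.766).

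**Figure D3:**
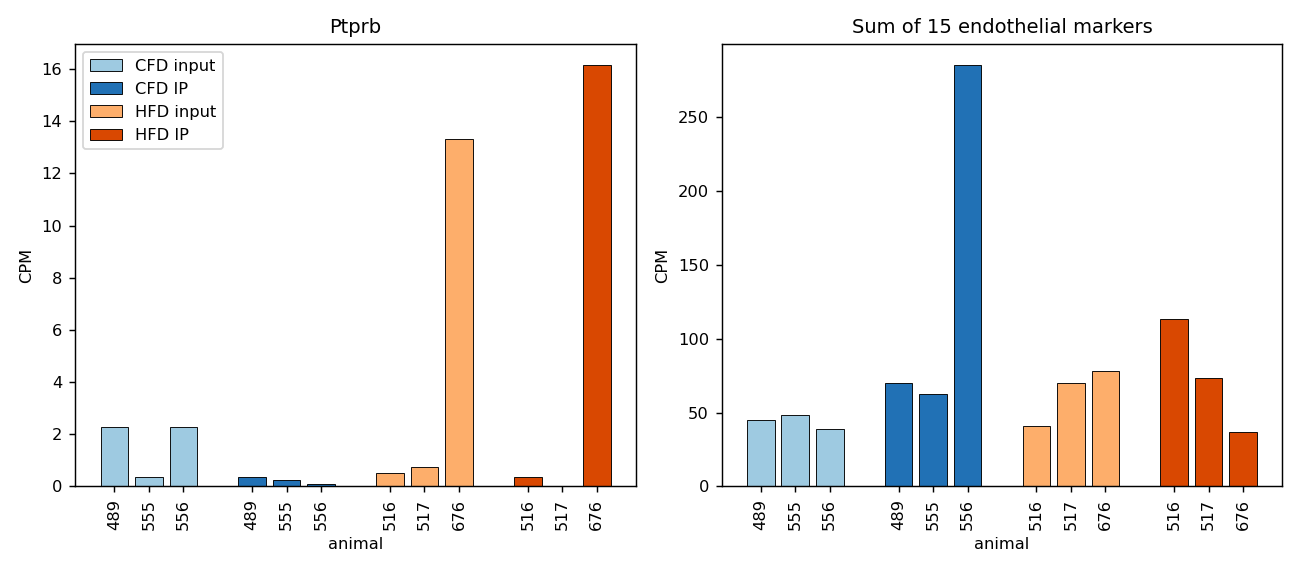
Ptprb (left) and the sum of 15 endothelial markers (right) in CPM on linear axes starting at 0, 1 bar per library, labelled by animal and coloured by group. Ptprb peaks in both libraries of animal 676, at 13.3 and 16.2 CPM, and the marker sum peaks at 285 CPM in the CFD IP library of animal 556.

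Ptprj, a growth-inhibitory phosphatase of endothelial, epithelial and blood cells, was higher in IP than in input averaged over the diets, and its levels overlapped between the diets in both fractions. It measured 117, 133 and 67.3 CPM in CFD input and 235, 161 and 210 CPM in CFD IP (animals 489, 555 and 556). In HFD it measured 72.3, 86.0 and 144 CPM in input and 317, 170 and 127 CPM in IP (animals 516, 517 and 676). Every CFD IP library lay above every CFD input, while the HFD groups overlapped through animal 676, whose IP value was 0.880 times its input. IP exceeded input in 5 of 6 animals, by 1.20 to 4.39 times. The averaged log2 fold change was 0.98 (SE 0.282), which passed at an edgeR adjusted p of 0.0956, and without animal 489, 516, 517, 555 or 556 it missed, with log2 fold changes of 0.65 to 1.15 and edgeR adjusted p-values of 0.111 to 0.491.

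The 3 enzymes of subtype R2A, which organise axon growth and synapses in neurons, differed in pattern. Ptprs, the receptor through which chondroitin sulfate proteoglycans act on axons, was above its input in all 6 animals, by 1.19 to 4.16 times. Its levels were 352, 294 and 166 CPM in CFD input and 560, 422 and 689 CPM in CFD IP, and 187, 172 and 347 CPM in HFD input and 449, 478 and 412 CPM in HFD IP. In both diets every IP library lay above every input. The averaged log2 fold change was 0.98 (SE 0.237, edgeR adjusted p = 0.0539). Without animal 516, 517 or 556 the call was lost, at log2 fold changes of 0.91, 0.87 and 0.76 and edgeR adjusted p-values of 0.297, 0.26 and 0.239.

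Ptprf, the founding member of the subtype, was also above its input in all 6 animals, by 1.31 to 14.3 times, the widest range of ratios among the members that were higher in all animals. It held 829, 306 and 761 counts in CFD input and 2069, 422 and 734 in CFD IP. In HFD it held 794, 204 and 756 counts in input and 7431, 3194 and 1153 in IP. The HFD IP libraries all lay above the HFD inputs, and the CFD groups overlapped. Animals 516 and 517 had IP levels 11.7 and 14.3 times their inputs, the other 4 animals 1.31 to 3.01 times. The averaged log2 fold change was 2.0 (SE 0.505, edgeR adjusted p = 0.0633), and it missed without animal 489, 516, 517 or 556, at log2 fold changes of 1.61 to 2.14 and edgeR adjusted p-values of 0.137 to 0.354.

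Ptprd, which binds Il1rapl1 and Slitrk proteins across the synapse, was the steadiest of the 10 genes in the inputs and its IP libraries lay on the other side of input from those of its relatives in CFD. The inputs spanned 179 to 239 CPM over 6 libraries. CFD IP libraries measured 162, 163 and 105 CPM, all below the CFD inputs, and HFD IP libraries measured 238, 344 and 195 CPM, all above CFD IP. The log2 fold change of IP against input was -0.58 (SE 0.319) in CFD and 0.29 (SE 0.318) in HFD, and neither passed (edgeR adjusted p = 0.476 and 0.962). Ptprd thus shared the ordering of Ptpro, in which CFD IP lay below both CFD input and HFD IP, at a much smaller size (a ratio of HFD IP to CFD IP means of 1.80). Over the 12 libraries, its log2 CPM had a Pearson r of 0.835 with that of Ptpro, as a description. The libraries share depth, scaling and animals, so no p is given.

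**Figure D4:**
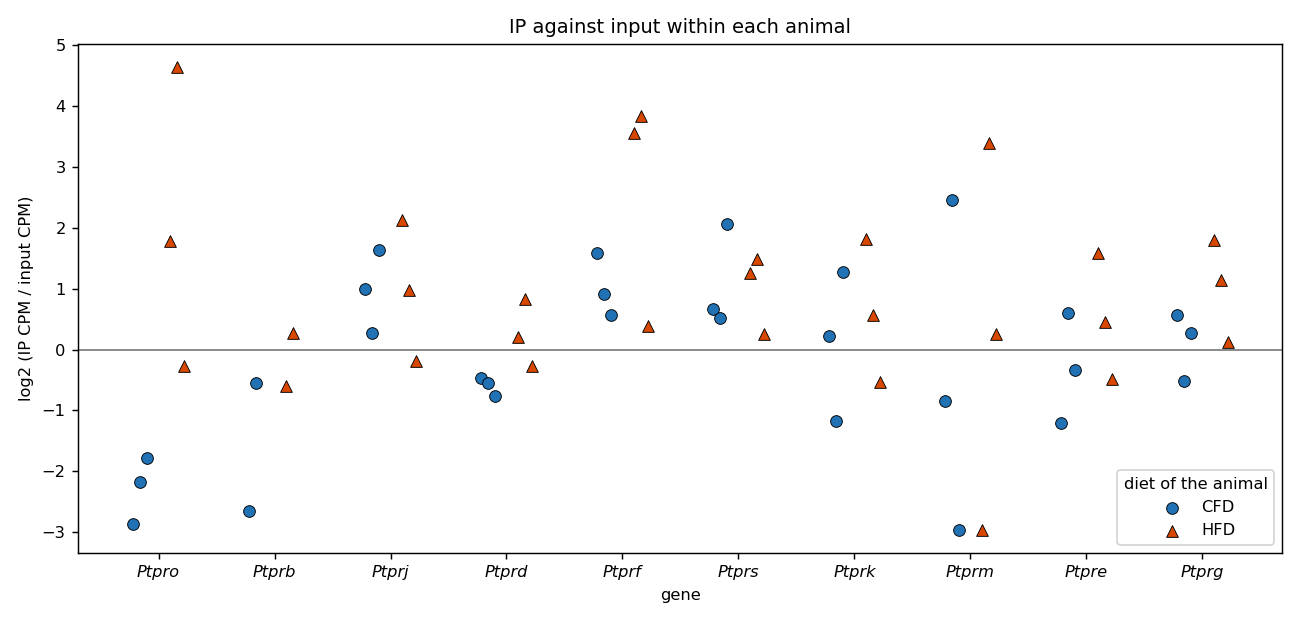
Log2 ratio of IP CPM to input CPM within each animal (y axis) for each gene (x axis), with circles for CFD and triangles for HFD animals in order of animal number; 2 ratios of Ptprb are not drawn because the IP library held at most 3 counts. Ptprf and Ptprs lie above 0 in all 6 animals, and Ptpro spans -2.87 to 4.64.

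Ptprk and Ptprm, the R2B enzymes that bind themselves at cell contacts, varied more between animals than between groups. Ptprk measured 26.0 to 67.8 CPM in CFD IP and 36.5 to 45.4 CPM in HFD IP, and the inputs spanned 10.4 to 65.3 CPM. IP exceeded input in 4 of 6 animals, and the averaged log2 fold change was 0.20 (SE 0.444, edgeR adjusted p = 0.897). Ptprm, which is abundant in endothelium and lung, had 373, 498 and 43 counts in CFD IP and 135, 4100 and 685 in HFD IP, against 812, 125 and 514 in CFD input and 1312, 358 and 492 in HFD input. The IP library of animal 517 gave 84.1% of the HFD IP level. The ratio of IP to input ran from 0.128 in animal 516 to 10.4 in animal 517 under the same diet, and the averaged log2 fold change of 0.46 (SE 0.7, edgeR adjusted p = 0.839) turned to -0.71 without animal 517.

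Ptpre, a phosphatase of Src-family kinases and potassium channels, showed no separation between any groups. Its CFD IP libraries held 309, 2586 and 693 counts, and its HFD IP libraries held 2633, 1305 and 1651. The averaged log2 fold change was 0.29 (SE 0.44, edgeR adjusted p = 0.842). Ptprg, whose contactin ligands are neuronal adhesion molecules, measured 110, 90.7 and 103 CPM in CFD IP and 215, 161 and 130 CPM in HFD IP. Every HFD IP library lay above every CFD IP library and above every HFD input (61.8, 73.0 and 120 CPM). IP exceeded input in 5 of 6 animals, with an averaged log2 fold change of 0.53 (SE 0.269) that did not pass (edgeR adjusted p = 0.391). The HFD value alone was 0.99 (SE 0.383, edgeR adjusted p = 0.648).

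Across the set, IP against input averaged over the diets was tested for the 9 genes other than Ptpro. All 10 genes had enough counts for the fit. Ptprs, Ptprf and Ptprj were called higher and 0 were called lower, where 1.93% of all 14354 genes tested were called higher, 0.418% lower and 2.35% either way. That background covers genes at any level and was not matched to the set. The median log2 fold change was 0.38 for the 10 genes and -0.03 for all genes tested. Within CFD alone 0 of 9 were called (0.188% of all genes). There, 2 of the 9 had an unadjusted edgeR p under 0.05, as did 1697 of all 14354 genes tested. Within HFD alone 0 of 9 were called (0.0139% of all genes). There, 4 of the 9 had an unadjusted edgeR p under 0.05, as did 935 of all 14354. DESeq2 called Ptprs in CFD (adjusted p = 0.0738), where it called 811 of all 14354 genes. It called Ptprf in HFD (adjusted p = 0.031), where it called 66 of all genes. For Ptprb it gave no adjusted p in either diet. By separation of libraries, CFD IP lay above CFD input for Ptprj and Ptprs (6.43% of all genes) and below it for Ptpro and Ptprd (8.72%), and HFD IP lay above HFD input for Ptprf, Ptprg and Ptprs (6.13%). IP exceeded input in all 6 animals for 2 of the 10 genes, against 4.09% of all genes. The direction in HFD minus that in CFD was not tested, since it uses the libraries that chose the set.

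The GC content of the transcript was high for 2 of the 3 called genes and below the median of 50.4% for Ptprj. Ptprs (60.3% GC) and Ptprf (58.1%) were at the 95.3 and 88.9 percentiles of tested genes, Ptprj (48.8%) at the 41.4 percentile and Ptprd (42.4%) at the 11.4 percentile. Between genes at the 10th and the 90th percentile of GC, the deviation of a library from the mean log2 CPM changed by 0.144 to 0.954 in CFD IP, by 0.00491 to 0.22 in HFD IP and by -0.618 to 0.0668 in the inputs. With each library's GC trend removed, a choice made after seeing the data, the averaged log2 fold changes became 0.67 for Ptprs, 1.72 for Ptprf and 1.04 for Ptprj, and 0 of the 9 were called (edgeR adjusted p = 0.181, 0.127 and 0.122). With the animal as a block in the same fit, Ptprf and Ptprj were called (edgeR adjusted p = 0.0639 and 0.0643) and Ptprs was not (0.123). With the animal as a block and no GC correction, all 3 were called.

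**Figure D5:**
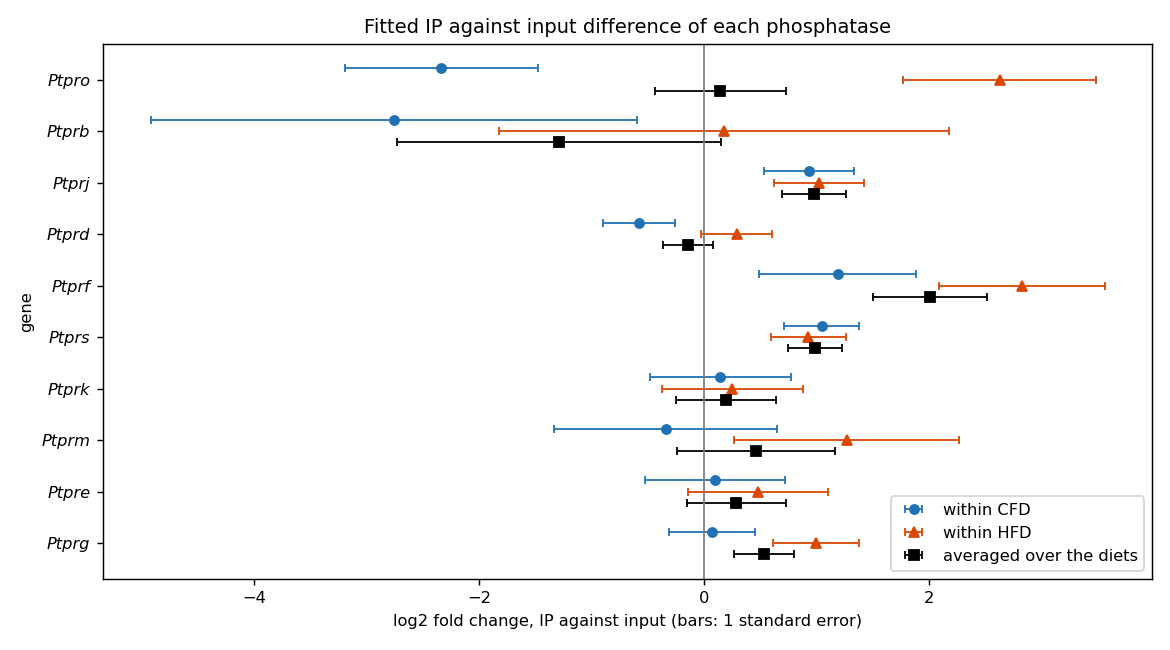
Fitted log2 fold change of IP against input (x axis, bars are 1 standard error) for each gene (y axis), within CFD (circles), within HFD (triangles) and averaged over the diets (squares). The averaged values of Ptprf (2.0), Ptprs (0.98) and Ptprj (0.98) passed the threshold, and those of Ptpro are a description with no test.

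In the inputs, which hold RNA of the whole tissue, no difference by diet was detectable in these genes with 3 mice a group. HFD input against CFD input gave 0 calls among the 10, and 0.0% of the 14354 genes tested were called. At an unadjusted p under 0.05 there were 0 of the 10 and 292 of all genes, and DESeq2 called 31 genes, 0 of them in the set. DESeq2 gave no adjusted p for Ptprb, so that gene could not be called there. The log2 fold changes ran from -0.40 (SE 0.69) for Ptprf to 0.21 (SE 0.988) for Ptprm, with Ptprb apart at 1.57 (SE 2.05). For Ptprd, Ptprs, Ptprg and Ptprj, the standard errors were 0.317 to 0.395 and the values -0.20 to -0.01.

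Between the IP groups, whose difference chose the set, the values are listed with no test. The fitted log2 difference of HFD IP against CFD IP was 4.79 for Ptpro, 4.50 for Ptprb, 1.81 for Ptprm, 1.24 for Ptprf, 0.85 for Ptprd and 0.74 for Ptprg. It was 0.04 for Ptpre, 0.02 for Ptprj, -0.15 for Ptprk and -0.32 for Ptprs. HFD IP lay wholly above CFD IP for Ptpro, Ptprd and Ptprg, where 5.94% of all genes did so and 0.0557% of all genes were called. The median was 0.79 over the 10 and 0.03 over all genes tested. The set was chosen with this difference known, so the gap between these medians carries no weight. The large values of Ptprb, Ptprm and Ptprf leaned on 1 animal each: 676 gave 97.9%, 517 gave 84.1% and 516 gave 64.7% of the HFD IP level. Animal 517 also gave 70.6% of the HFD IP level of Ptpro.

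Other genes of the same pathways were read from lists by role. In IP against input averaged over the diets, 1.93% of all genes tested were called higher and 0.418% lower, with a median of -0.03. Of 10 other receptor-type phosphatases, 9 were tested, and Ptprn, a catalytically inactive protein of dense-core vesicles, rose in IP averaged over the diets (log2 fold change 0.87, SE 0.23, edgeR adjusted p = 0.0763), with 0 lower and a list median of 0.86. Per kilobase, Ptprn was also the most abundant of that list (99.8 CPM per kb over the 12 libraries), before Ptprn2 (46.1), Ptpra (29.8) and Ptprz1 (22.8). Of 44 ligands and partners, 41 were tested and 4 rose: Sdc3 and Ncan, proteoglycans of the kind that bind Ptprs, and Il1rapl1 and Lrrc4b, synaptic adhesion proteins of which Il1rapl1 binds Ptprd and Lrrc4b binds Ptprf. Lrrc4b measured 162 ± 25.6 and 388 ± 125 CPM in CFD input and IP, and 109 ± 22.5 and 245 ± 78.3 CPM in HFD input and IP (SD, n = 3 each; log2 fold change 1.22, SE 0.24, edgeR adjusted p = 0.023). Il1rapl1 held 109, 12 and 20 counts in CFD input and 1198, 801 and 221 in CFD IP, then 393, 98 and 180 in HFD input and 1176, 229 and 234 in HFD IP. The list median was 0.29, with 28 fitted higher and 13 lower. The vascular partners Tek, Kdr and Cdh5 were tested and not called, and Tie1 had too few counts to be tested. By level, Ctnnb1 (86.2 CPM per kb), the junction protein beta-catenin, Lrrc4b (83.0), Ptn (69.7) and Cntn1 (60.1) led that list.

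Of 29 adaptors, kinases and substrates, 27 were tested and 3 rose. The list median was 0.415, with 19 fitted higher and 8 lower. Ppfia3, a liprin scaffold that binds the R2A enzymes, had a log2 fold change of 1.37 (SE 0.314, edgeR adjusted p = 0.0419). Caskin1, a scaffold that binds the same enzymes, measured 115 ± 20.3 CPM in CFD input and 357 ± 72.5 CPM in CFD IP, and 109 ± 4.03 CPM in HFD input and 189 ± 26.6 CPM in HFD IP (SD, n = 3 each; averaged log2 fold change 1.22, SE 0.218, edgeR adjusted p = 0.0154). Git1, a scaffold of focal adhesions and synapses, had a log2 fold change of 1.14 (SE 0.274, edgeR adjusted p = 0.0534), and Caskin1 and Git1 were also called within CFD. By level, Git1 (133 CPM per kb) led that list, before Ntrk2 (61.9), Enah (50.1) and Epha4 (47.9). Git1 ranged from 54.8 to 503 CPM per kb over the 12 libraries. It held 7531, 5671 and 8930 counts in CFD input and 15133, 8466 and 32776 in CFD IP (animals 489, 555 and 556). Of 17 non-receptor phosphatases, 13 were tested, with a list median of -0.03, 6 fitted higher and 7 lower. Ptpn1, the phosphatase of the insulin receptor, rose (1.56, SE 0.401, edgeR adjusted p = 0.0679), and Ptpn4 fell (-1.04, SE 0.296, edgeR adjusted p = 0.0909). Ptpn6, the phosphatase of blood cells, was called lower (edgeR adjusted p = 0.0879) with 0 or 1 count in all 6 IP libraries, 96, 0 and 0 counts in the CFD inputs and 23, 289 and 146 in the HFD inputs. With the animal as a block, Ptpn4 and Ptpn6 were no longer called (edgeR adjusted p = 0.104 and 0.381). The most abundant of that list were Ptpn5 (32.7 CPM per kb), Ptpn11 (31.8), Ptpn4 (18.7) and Ptpn3 (13.6). With the GC trend removed, Il1rapl1 and Caskin1 were the genes of these 4 lists still called. The calls also depended on single animals: without animal 516 none of the genes of the 4 lists was called, Ptprn was lost without 516, 517, 555 or 556, no ligand or partner was called without 517, no adaptor, kinase or substrate without 556, and no non-receptor phosphatase without 489, 516, 517, 555 or 556. Il1rapl1 and Ptpn1 were each lost whichever animal was left out.

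Genes whose log2 CPM was most like that of Ptpro over the 12 libraries were Cap2 (r = 0.917), Grtp1 (0.899), Zc3hav1l (0.887), Gnptg (0.871) and Cbr1 (0.871). Cap2 is an actin regulator, Cbr1 a carbonyl reductase and Gnptg a subunit of the lysosomal mannose phosphate transferase. Cbr1 held 89, 167 and 41 counts in CFD IP and 1248, 2010 and 735 in HFD IP, and Cap2, at a far higher level, held 4632, 4244 and 4865 in CFD IP and 9948, 14563 and 10305 in HFD IP. For Ptprb the most similar were 1700109K24Rik (r = 0.944), Gm1653 (0.915), F420014N23Rik (0.909), Phxr4 (0.9) and A330032B11Rik (0.9), all of low count and all highest in libraries of animal 676. F420014N23Rik, for example, held 142 and 235 counts in the input and IP of 676 and at most 45 in any other library. The libraries in these correlations share depth and scaling, and no p is given.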

How the data were processed

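White matter RNA of 6 mice gave 12 libraries, 4 groups of 3, sequenced as paired-end reads. The authors aligned reads with STAR to mm10 and deposited raw counts per gene, FPKM values and a normalized signal per library; HTSeq is named in the submitters' processing notes with no role, and strand use was not stated. The deposited FPKM values served to recover each gene's length, and the deposited signal columns were not tested. Columns with the authors' fold changes and p-values were not used. The library kit in the labels is not the one in the methods.

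Counts were tested with edgeR 4.0.16 (R 4.3.3; quasi-likelihood, TMM scaling, 4 group means, filterByExpr with a minimum count of 10), which kept 14354 of 24060 genes. A call is a Benjamini-Hochberg adjusted p under 0.1 over all genes tested. Library totals were 19567186 to 33660708 and the common biological coefficient of variation was 101%, which limits the precision. IP and input came from the same mouse by its label number, so the animal block was an alternative: deviations of IP and input from their group means had r = 0.00641 to 0.19. Log2 CPM used a prior count of 2, and ratios were left out where a library held 3 counts or fewer. Whether replicate mice shared litters was not stated. RefSeq (GRCm38.p6) gave coordinates, promoters and GC content. Other alternatives used limma 3.58.1 and DESeq2 1.42.0.

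The members and gene lists were chosen with earlier results of these data known. All members are named; of each list, called genes and the 4 of highest level per length; for Ptpro and Ptprb, the 5 genes of highest correlation.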

Additional observations from a re-analysis of the deposited data

How the results depend on the processing

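Results were recomputed under other scaling, filters, tests and blocks, and with each animal left out. The number of members called in IP against input averaged over the diets was 3 under RLE scaling, without the filter on low counts, by the likelihood ratio test, by DESeq2, without Rn45s and Lars2, and with the animal as a block (the replicate block). It was 0.0 at an adjusted p under 0.05, 0.0 with the GC trend removed, and 0.0 to 3.0 as each animal was left out. DESeq2 gave 1.0 call in CFD and 1.0 in HFD, and the table without the filter gave 1.0 in HFD. With the replicate block the log2 fold change turned to -0.31 for Ptpre in CFD, -1.53 for Ptprb in HFD and -0.16 for Ptprm averaged, none of them called, and the block changed no call of a member. Of the values given with no test, averaged Ptpro turned to -0.14 and HFD IP against CFD IP to -0.0832 for Ptprj. With the block and the GC trend removed, Ptpre, Ptprb, Ptprm and Ptpro had -0.28, -1.44, -0.19 and -0.11, and averaged Ptprd turned to 0.18 (0.20 with the GC trend alone).

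As each animal was left out, values that changed sign ran as follows on the log2 scale. IP against input in CFD ran from -0.63 to 0.31 for Ptpre, -0.16 to 0.43 for Ptprg, -0.48 to 0.78 for Ptprk and -1.30 to 0.19 for Ptprm. In HFD it ran from -1.87 to 0.26 for Ptprb, -0.0327 to 0.54 for Ptprd, -0.14 to 1.11 for Ptpre, -0.11 to 1.01 for Ptprk and -1.08 to 2.35 for Ptprm. Averaged, it ran from -0.0743 to 0.60 for Ptpre, -0.11 to 0.58 for Ptprk and -0.71 to 1.01 for Ptprm. HFD input against CFD input ran from -0.41 to 0.21 for Ptpro, -1.34 to 2.08 for Ptprb, -0.13 to 0.0817 for Ptprd, -0.85 to 0.0562 for Ptpre, -0.52 to 0.10 for Ptprg, -0.42 to 0.14 for Ptprj, -1.08 to 0.17 for Ptprk, -0.35 to 0.93 for Ptprm and -0.59 to 0.0162 for Ptprs. None of these values was called. Of the values given with no test, averaged Ptpro ran from -0.60 to 0.46, and HFD IP against CFD IP from -0.45 to 5.08 for Ptprb, -0.43 to 1.16 for Ptpre, -0.47 to 0.27 for Ptprj, -0.43 to 0.25 for Ptprk and -0.26 to 2.33 for Ptprm. The cause of these changes was not tested.

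Counts over all genes moved as well. For IP against input averaged over the diets, 337 genes were called, against 730 without the filter, 779 by the likelihood ratio test, 984 by DESeq2, 103 with the GC trend removed, 106 at an adjusted p under 0.05, and 7 (without 516) to 430 (without 676) as animals were left out. For CFD the 27 calls became 312, 277, 811, 4 and 3 under the same 5 settings, 139 with the replicate block, 60 with the block and the GC trend removed, and 2 to 52 without 1 animal. For HFD the 2 calls became 79 without the filter, 4 by the likelihood ratio test, 66 by DESeq2, 24 with the replicate block, 7 with the block and GC trend removed, 0 without Rn45s and Lars2, 0 in a fit of the compared libraries alone, and 0 to 35 without 1 animal. For the inputs the 0 calls became 3 without the filter, 31 by DESeq2 and 1 without 676. For HFD IP against CFD IP the 8 calls became 219, 227 and 729 without the filter, by the likelihood ratio test and by DESeq2, 5 with the block, 5 without Rn45s and Lars2, 5 in the compared libraries alone, 2 at an adjusted p under 0.05, and 1 to 20 without 1 animal. The block moved the median over all genes to -0.25 in the averaged comparison. The total counts limit precision least for Ptprs and most for Ptprb, which held 0 to 10 counts in 5 of 6 IP libraries.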
